A study of Mus musculus with 9 samples.

Results

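The interleukin 1, 6, 18 and 33 axis was followed through 10 genes: the ligands Il1a, Il1b, Il18, Il33 and Il6, the antagonist Il1rn, and the receptor chains Il1r1, Il1rl1, Il6ra and Il6st. They were taken by name, under a rule that uses no measured value, although earlier results of these data were known. They came out of 30869 gene symbols on an Illumina mouse BeadChip. All probes carrying one of these symbols were taken, which gave 20 probes, and 16 of them, covering all 10 genes, were detected on at least 3 of the 9 arrays and entered the test. The samples were groups of activated hepatic stellate cells, the collagen-producing cells of the injured liver, with 3 arrays in each of 3 groups. WT1-high (GFP high) and WT1-intermediate (GFP low) cells came straight from the livers of male WT1GFP/+ mice of the C57/Bl6 strain that had received repeated carbon tetrachloride, a hepatotoxin, by intraperitoneal injection. WT1-negative cells were the GFP negative fraction of stellate cells from uninjured WT1GFP/+ mice after 7 days on plastic. Every group therefore carried 1 Wt1 allele with GFP in it, and every population was enriched by density centrifugation and then sorted on GFP. WT1 status coincided with origin, liver or culture dish, in the comparisons with WT1-negative cells, so WT1, injury and culture cannot be told apart there. Arrays are named by the numbers in their labels, 1, 8 and 29 for WT1-high, 1, 8 and 30 for WT1-intermediate and 3, 11 and 14 for WT1-negative, and values are given in that order.

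The members of this axis act as alarm signals and their receivers. IL-1α and IL-1β share the receptor encoded by Il1r1, which pairs with the product of Il1rap and signals through MyD88 to NF-κB, while the Il1rn product occupies the same receptor without signalling and the Il1r2 product binds ligand as a decoy. IL-18 and IL-1β are released as active cytokines after cleavage by caspase-1 in the inflammasome. IL-33 is stored in the nucleus of barrier and stromal cells, is released on damage, and binds the receptor chain encoded by Il1rl1 (ST2). IL-6 binds the chain encoded by Il6ra, on the cell or shed from it, and then gp130, the Il6st product that the whole IL-6 family shares, which signals through JAK kinases and STAT3. In the liver IL-6 drives the acute phase response of hepatocytes, and IL-1 is a known activator of stellate cells.

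Against the cultured WT1-negative cells, the 2 populations from injured liver carried more Il33, Il6, Il1b and Il6st mRNA and less Il1a and Il6ra mRNA. For Il18, 1 of its 2 probes was called higher in both populations and the other was called lower in both. Il33 was 23.1-fold higher in WT1-high cells and Il6 was 19.2-fold higher in WT1-intermediate cells, whereas Il1a was 10.7-fold lower in WT1-high cells by its leading probe and 3.81-fold by the other. Within the injured liver, Il1a and the leading probe of Il1rn were lower in WT1-high cells than in the WT1-intermediate ones. A member was called when its limma p-value, adjusted by Benjamini-Hochberg over all 20573 probes kept, was under 0.05. WT1-high against WT1-intermediate gave 3 called probes of 16, all lower in WT1-high, where 3.55% of all probes were called. WT1-high against WT1-negative gave 12 called probes, 6 in each direction, beside 59.6% of all probes. WT1-intermediate against WT1-negative gave 13, with 7 higher and 6 lower, beside 58% of all probes. Among the higher probes, Il1rl1 (in WT1-high) and the third Il1rn probe (in WT1-intermediate) entered the test only through arrays from injured liver. The share of members called in these last comparisons, 75% and 81.2%, is read against a background in which most probes differed. Groups did not overlap for 5, 14 and 13 of the 16 probes in the same order of comparisons, beside 20.1%, 68.4% and 65.5% of all probes.

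Taking for each gene its leading probe, the one with the highest mean over the 9 arrays, 2 of the 10 genes were lower and none higher in WT1-high cells than in the WT1-intermediate ones. Of all 14659 genes, 2.87% were called lower and 0.962% higher in that comparison. Against WT1-negative cells, 6 genes were higher and 2 lower in WT1-high cells (27.6% and 32.1% of all genes), and likewise 6 higher and 2 lower in WT1-intermediate cells (25.9% and 32% of all genes). Il18 counts as higher here by its leading probe, while its other probe was called lower. The median log2 difference over the 10 genes was -0.30, 1.10 and 1.55 in the 3 comparisons, against 0.04, -0.07 and -0.10 over all genes.

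**Figure D1:**
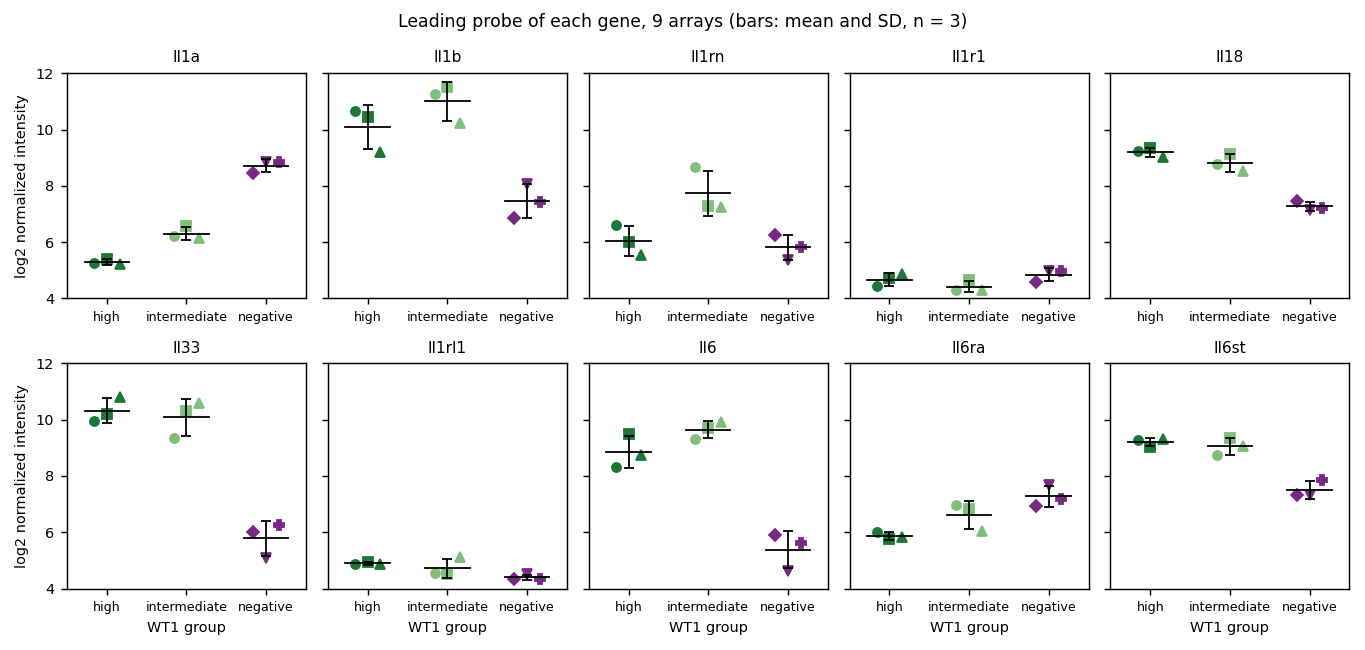
Log2 normalized intensity (vertical axis) of the leading probe of each gene in WT1-high, WT1-intermediate and WT1-negative cells, 1 point per array, with the mean and SD over 3 arrays; points of the same shape in the high and intermediate groups come from the same animal. Il33 and Il6 sit near 10 and 9 in both populations from injured liver and between 4.63 and 6.27 in culture, while Il1a runs the other way.

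**Figure D2:**
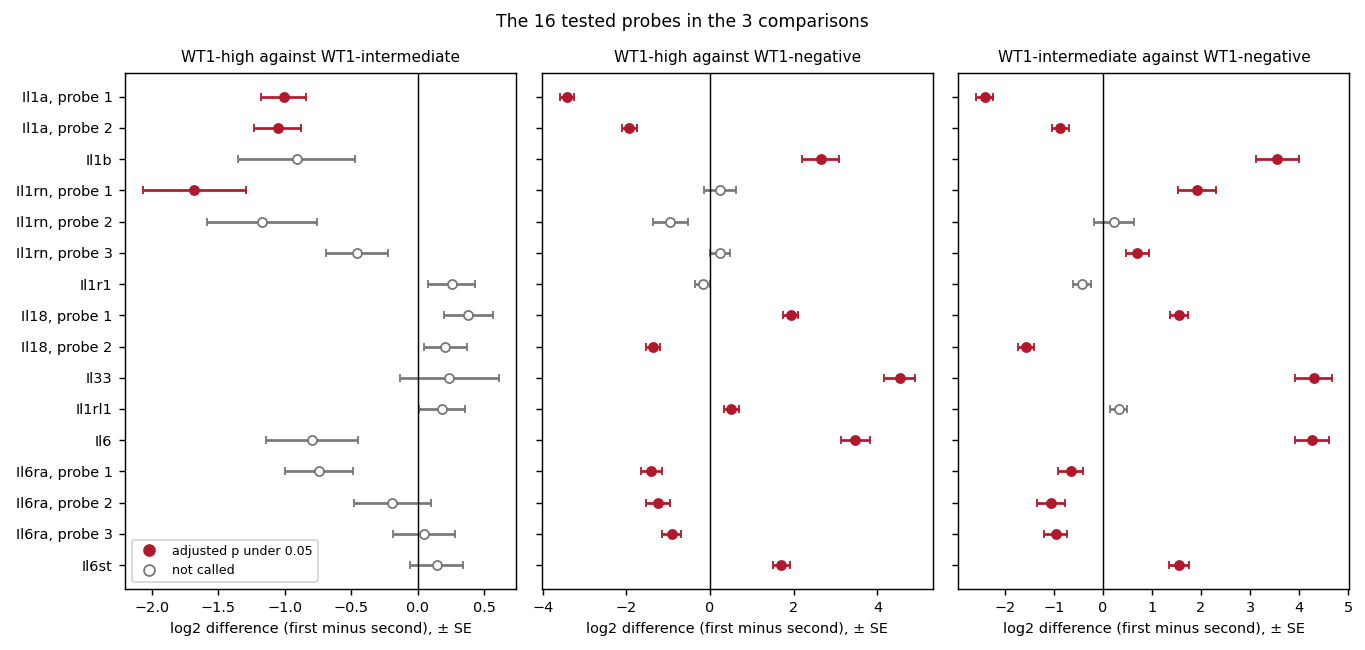
Log2 difference with its SE (horizontal axis, first group minus second) for the 16 tested probes in the 3 comparisons; filled points passed the adjusted threshold. Filled points are 3, 12 and 13 in number, and the axes differ in range between panels.

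The 9 arrays were alike in the share of the 45281 probes detected, 38.1% to 43.7%, and had 22 to 68 beads behind each value of a member. They differed in mean raw signal, from 147.5 (WT1-intermediate 30) to 288.9 (WT1-high 8). In each animal the WT1-intermediate array was dimmer than the WT1-high one (183.5 against 233.1, 220.5 against 288.9 and 147.5 against 231.4). The SE over the beads was 1.39% to 5.84% of the raw signal, background included. Markers of other cell types moved between the groups. The summed normalized intensity of 20 tested macrophage and monocyte markers was 5950 to 9370 in WT1-high, 19100 to 31000 in WT1-intermediate and 62200 to 67600 in WT1-negative cells. Of these 20 markers, 15 were called lower in WT1-high cells than in the WT1-intermediate ones, among them C1qa, a complement gene of tissue macrophages (log2 difference -2.83). In WT1-negative cells, Mrc1, C1qb and Cd68 were high (12.17, 13.33 and 12.67 on the log2 scale), while Ptprc, the pan-leukocyte marker CD45, and Clec4f, which marks Kupffer cells, were not well above background on any WT1-negative array. Neutrophil markers summed to 1110 to 2320, 1810 to 2900 and 376 to 673, and T and NK cell markers to 1040 to 1460, 894 to 1500 and 752 to 901. Cd3d and Cd3e were not well above background on the WT1-negative arrays, where Thy1 had the highest level of the T and NK list (mean 9.22). Endothelial markers summed to 1220 to 1530, 2180 to 2580 and 4450 to 5210. In culture Fcgr2b had the highest level of this list (mean 11.97), while Clec4g ran the other way (9.55, 10.24 and 6.79). By gene, 2 of 10 were called higher and 5 lower in WT1-high cells than in cultured ones, and 2 higher and 6 lower in WT1-intermediate cells.

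Mesothelial markers stood at 34600 to 38500, 19900 to 27500 and 389 to 475, and Gpm6a, Dmkn, Krt19 and Lrrn4 were not well above background on any WT1-negative array. Hepatocyte markers summed to 5760 to 8830, 3020 to 4870 and 3420 to 4870, with Apoa1 and Cyp2e1 not well above background in culture. Trf was the highest of this list in each group, with means of 12.5, 11.7 and 11.9, and Alb and Fgb were detected on no array. Mast cell markers were low throughout (95.2 to 102, 103 to 110 and 135 to 159). Of the stellate cell markers that check the labels, 11 of 12 were tested and summed to 9270 to 9640, 6330 to 8240 and 13700 to 15200; Lrat, which stores vitamin A as esters, was detected on 1 array, Acta2 and Col1a1, which mark activated cells, were lower in both populations from injured liver than in culture (Acta2 by -1.78 and -2.55, Col1a1 by -1.40 and -1.26), Vim had means of 12.02, 11.74 and 11.90 with no call, and Colec11 and Hand2 were not well above background in the WT1-negative cells. In sorted populations of this kind, fewer cells of a type and less RNA per cell cannot be told apart.

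**Figure D3:**
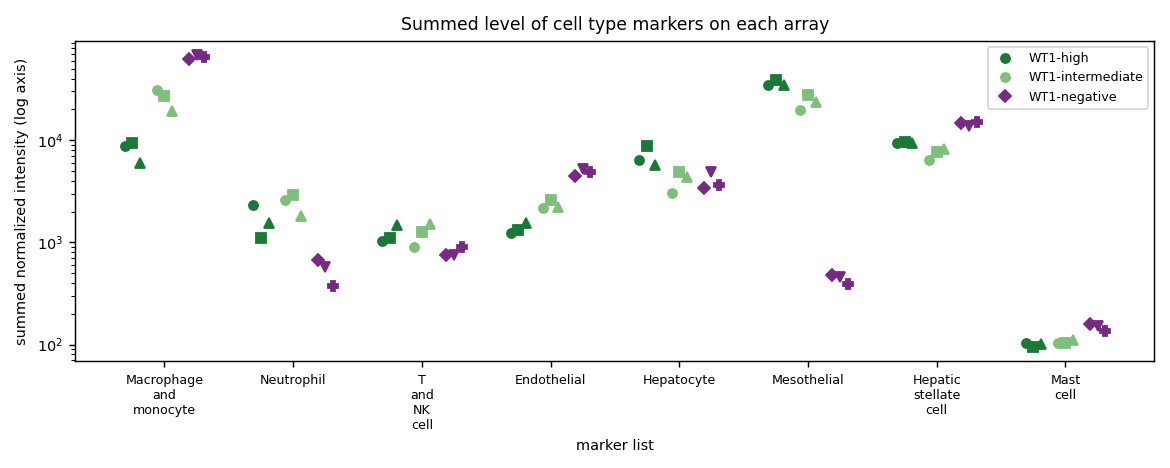
Summed normalized intensity (vertical, log axis) of the tested markers of 8 cell types on each of the 9 arrays, coloured by group. The macrophage and monocyte markers rise from WT1-high (5950 to 9370) through WT1-intermediate (19100 to 31000) to WT1-negative cells (62200 to 67600), and the mesothelial markers run the other way.

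Il1a, the membrane-bound alarm ligand of the IL-1 receptor, was measured by 2 probes that gave the same order of groups. The leading probe stood at 5.24, 5.41 and 5.23 in WT1-high cells, at 6.21, 6.57 and 6.14 in WT1-intermediate cells and at 8.45, 8.85 and 8.86 in WT1-negative cells on the log2 scale. No WT1-high array reached the lowest WT1-intermediate array, and no WT1-intermediate array reached the lowest WT1-negative array. WT1-high was below WT1-intermediate by a log2 difference of -1.01 (SE 0.17, adjusted p 0.0092, limma), or 2.01-fold, and lower in 3 of 3 animals (-0.96, -1.16 and -0.90). The differences from WT1-negative cells were -3.43 (SE 0.17, adjusted p 4.1e-08) for WT1-high and -2.42 (adjusted p 7.2e-07) for WT1-intermediate. Over the 20 alternatives these ran from -3.53 to -2.01 and from -2.98 to -1.61, with the smallest sizes without background correction and every call kept. The second probe gave -1.05 (SE 0.18, adjusted p 0.0088), -1.93 and -0.87, all called. Over the 20 alternative settings the leading probe's difference between WT1-high and WT1-intermediate ran from -1.13 to -0.40, and its call was lost under median scaling (adjusted p 0.23) and without background correction (adjusted p 0.08). The summed macrophage and monocyte markers stood in the same order of groups as Il1a, while by gene 6 of the 20 were called higher and 8 lower in WT1-intermediate cells than in cultured ones (3 higher and 13 lower in WT1-high cells), and their part in the result was not tested.

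Il1b, the secreted IL-1 ligand, was higher in the cells from injured liver. It stood at 10.65, 10.45 and 9.18 in WT1-high cells, 11.27, 11.52 and 10.23 in WT1-intermediate cells and 6.85, 8.07 and 7.43 in WT1-negative cells. All 6 arrays from injured liver lay above all 3 WT1-negative arrays, while the 2 WT1-positive populations overlapped. The log2 differences from WT1-negative cells were 2.64 (SE 0.44, adjusted p 0.00033) for WT1-high and 3.56 (SE 0.44, adjusted p 4.3e-05) for WT1-intermediate, which are 6.25-fold and 11.8-fold. WT1-high was lower than WT1-intermediate in 3 of 3 animals, by -0.62, -1.08 and -1.04, and the fitted difference of -0.91 (SE 0.44) did not pass the threshold (adjusted p 0.32). The animal sampled by the arrays numbered 29 and 30 gave the lowest Il1b in both populations. Of 7 neutrophil markers, WT1-high cells had 4 called higher than in culture and WT1-intermediate cells 5, with Mpo lower in WT1-high cells, and their part in the Il1b result was not tested.

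Il1a and Il1b are neighbours on chromosome 2, and they moved in opposite directions between liver and culture, so the bases before their starts are shown together, with those of Il6, which rose with Il1b. The sequences are 100 bases up to the transcription start from the RefSeq table for GRCm38.p6, read 5′ to 3′ on the gene's own strand, which is the minus strand for Il1a (chr2:129309973-129310072) and Il1b (chr2:129371140-129371239) and the plus strand for Il6 (chr5:30013014-30013113). Capitals mark TATAAA in Il1a and Il1b and the NF-κB motif GGGANTTTCC in Il6.
Il1a: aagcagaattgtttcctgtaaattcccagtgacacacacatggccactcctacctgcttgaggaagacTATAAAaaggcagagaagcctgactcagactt
Il1b: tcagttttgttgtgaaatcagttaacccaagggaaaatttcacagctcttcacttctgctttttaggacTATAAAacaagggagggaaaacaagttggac
Il6: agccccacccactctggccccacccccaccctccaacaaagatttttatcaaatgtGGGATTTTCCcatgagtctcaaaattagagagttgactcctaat
The TATAAA of Il1a begins 32 bases before the start and that of Il1b 31 bases before it, and the motif of Il6 begins 44 bases before its start. Searched on both strands in the 250 bases before each of 32851 starts, TATAAA was found in 12.4% and GGGANTTTCC in 0.356% of entries. Of the 15 entries of the 10 members, 5 held TATAAA, 1 held GGGANTTTCC and 3 held the AP-1 motif TGANTCA, which 6.75% of all entries hold; in Il1a this motif begins 12 bases before the start. These matches describe letters in a window and no binding was measured.

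Il1rn, which encodes the IL-1 receptor antagonist, was highest in WT1-intermediate cells. Its leading probe stood at 6.60, 6.00 and 5.54 in WT1-high cells, 8.66, 7.28 and 7.24 in WT1-intermediate cells and 6.25, 5.36 and 5.84 in WT1-negative cells. The WT1-intermediate arrays lay above all the others. WT1-high was below WT1-intermediate by -1.68 (SE 0.39, adjusted p 0.038), or 3.20-fold, and lower in 3 of 3 animals (-2.06, -1.28 and -1.70). WT1-intermediate was above WT1-negative by 1.91 (SE 0.39, adjusted p 0.0014), while WT1-high differed from WT1-negative by 0.23 (SE 0.39, adjusted p 0.62). The call between the 2 populations of injured liver was lost in 10 of 20 alternatives, with an adjusted p of up to 0.17, among them those without WT1-high 8 (0.12), WT1-high 29 (0.12), WT1-intermediate 1 (0.10) or WT1-negative 14 (0.055). Macrophage and monocyte markers were also lower in WT1-high cells than in the WT1-intermediate ones, and their part in the Il1rn result was not tested.

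The file gave the leading Il1rn probe to transcript variant 1 and the next to transcript variant 2, and the probes disagreed on the cultured cells. The variant 2 probe stood at 5.97, 5.54 and 5.24 in WT1-high cells, 7.95, 6.24 and 6.06 in WT1-intermediate cells and 6.61, 6.21 and 6.77 in WT1-negative cells, so that here the WT1-negative arrays overlapped the WT1-intermediate and not the WT1-high ones. Its difference between WT1-high and WT1-intermediate was -1.17 (SE 0.41, adjusted p 0.17) and was called with animals as a fixed replicate block (adjusted p 0.018). Its difference between WT1-high and WT1-negative was -0.95 (SE 0.41, adjusted p 0.068), called without WT1-intermediate 1 (0.0034) or WT1-intermediate 30 (0.046). It was also called with the fixed block (adjusted p 0.0068). Liver and culture share no animal, so in this comparison the fixed block takes spread between animals out of the error and its p-value is too small. The third probe was close to background, at 4.16 to 5.46. It was detected on 1, 2 and 0 arrays of the groups, so it entered the test only through arrays from injured liver. It was called higher in WT1-intermediate cells than in cultured ones, where no array had it well above background (at least 1.23-fold, adjusted p 0.023). The call was lost without the detection filter (adjusted p 0.068) and with an offset of 50 (0.058). It was also lost without WT1-negative 3 (0.059) or WT1-negative 11 (0.053). The fourth was detected on 1 array and was not tested.

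The signalling receptor Il1r1 was close to background in every group. Its tested probe stood at 4.42, 4.72 and 4.85 in WT1-high cells, 4.31, 4.64 and 4.29 in WT1-intermediate cells and 4.58, 4.97 and 4.98 in WT1-negative cells, and was detected on 5 of the 9 arrays. The groups overlapped in all 3 comparisons and none was called, the largest difference being -0.43 between WT1-intermediate and WT1-negative (SE 0.18, adjusted p 0.059). This difference passed without WT1-intermediate 8 (0.036) and without WT1-negative 3 (0.032). It also passed with the fixed replicate block (0.043), whose p-value is too small for groups that share no animal. The other Il1r1 probe was detected on no array, so these probes give little measure of the receptor. Its partner Il1rap was lower in WT1-high cells than in cultured ones (-0.85, adjusted p 0.0026) and in WT1-intermediate cells (-0.61, adjusted p 0.017), the latter not called without WT1-intermediate 8, WT1-intermediate 30 or WT1-negative 3, where the highest adjusted p over all settings was 0.067. Of the 7 tested genes of the wider IL-1 family, 2 were called higher and 3 lower in each comparison with WT1-negative cells and 0 were called between the WT1-positive populations by limma, where 1 had an unadjusted p under 0.05. The decoy Il1r2 moved in the other direction, with mean levels of 7.34, 7.43 and 4.51 and differences of 2.83 and 2.92 from WT1-negative cells (adjusted p 6.8e-07 in each). Il1rl2, the IL-36 receptor, was lower by -0.42 (adjusted p 0.021) in WT1-high cells, a call that stood in 12 of 19 alternatives and was lost without WT1-high 8, WT1-high 29, WT1-negative 3 or WT1-negative 14, and at least 1.29-fold lower in WT1-intermediate cells (adjusted p 0.0046). Sigirr, an inhibitory member of the receptor family, differed by 0.40 (adjusted p 0.052) and -0.14 (adjusted p 0.48).

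Il18, which encodes a ligand made as an inactive precursor, gave opposite results from its 2 probes. The probe designed on the RefSeq mRNA stood at 9.24, 9.33 and 9.01 in WT1-high cells, 8.79, 9.14 and 8.52 in WT1-intermediate cells and 7.46, 7.13 and 7.20 in WT1-negative cells. The probe designed on a cDNA clone stood at 4.71, 4.82 and 4.53, at 4.50, 4.68 and 4.27 and at 5.96, 5.94 and 6.24. The first was higher in WT1-high cells than in cultured ones by 1.93 (SE 0.18, adjusted p 5.2e-06) and the second lower by -1.36 (SE 0.16, adjusted p 2.9e-05). The same held in WT1-intermediate cells, with 1.55 (adjusted p 3.3e-05) and -1.57 (adjusted p 1.2e-05), the former not called under median scaling (0.84, adjusted p 0.065). In neither case did the groups overlap, so a direction for Il18 depends on the probe, although the cDNA probe was detected on only 3 of the 6 arrays from injured liver. Between WT1-high and WT1-intermediate the differences were 0.38 (adjusted p 0.33) and 0.21 (adjusted p 0.57), higher in 3 of 3 animals for both probes. The first 30 of 50 bases of each probe are shown because the choice of probe sets the direction.
Il18, RefSeq mRNA probe: ccctctctgtgaaggatagtaaaatgtcta
Il18, cDNA clone probe: aagcctgctataatcctcaggccccgggcg
Il1rn, variant 1 probe: tgccatgtgtgctcaggatgagctgattaa
Il1rn, variant 2 probe: cctcgggatggaaatctgctggggacccta

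**Figure D4:**
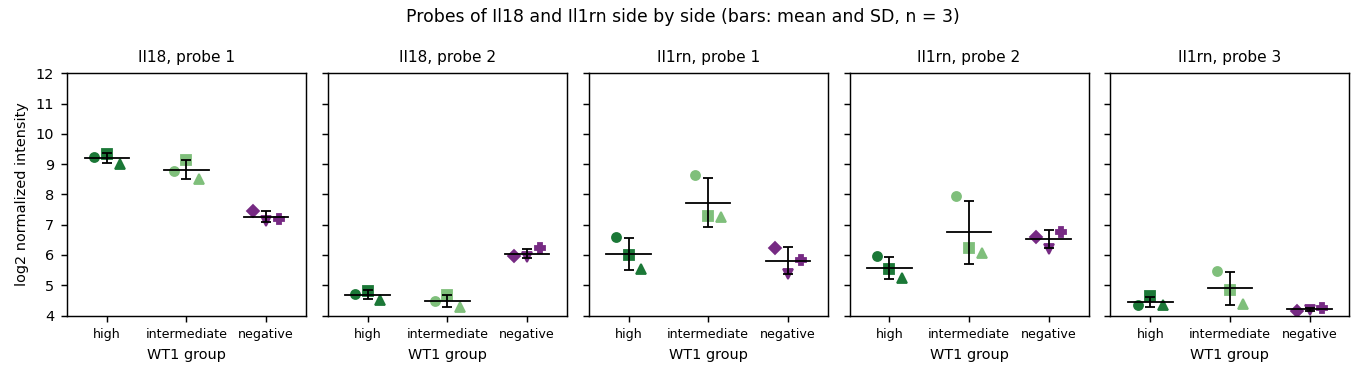
Log2 normalized intensity (vertical axis) of the 2 Il18 probes and the 3 tested Il1rn probes on the 9 arrays, with the mean and SD over 3 arrays. Il18 probe 1 falls from liver to culture (9.19 to 7.27 in WT1-high and WT1-negative means) while probe 2 rises (4.69 to 6.05).

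The receptor side of IL-18 was clearer. Il18r1, the chain that binds IL-18, had a mean of 10.25 in the WT1-high and 10.31 in the WT1-intermediate group and was not well above background on any WT1-negative array, giving at least 49.9-fold and at least 52.3-fold higher levels (adjusted p 8.7e-10 and 1.2e-09). The second chain, Il18rap, was detected on 1 array in each group, and its differences of -0.15 and -0.18 from WT1-negative cells were not called (adjusted p 0.46 and 0.38). Il18bp, the soluble inhibitor of IL-18, was lower in WT1-high cells (-0.66, adjusted p 0.0098), a call kept in 19 of 20 alternatives (adjusted p of up to 0.097). It was also lower in WT1-intermediate cells (-0.55, adjusted p 0.026). The latter call was lost without WT1-intermediate 1, WT1-intermediate 30, WT1-negative 3 or WT1-negative 11 (adjusted p of up to 0.18 over all settings). Of the T and NK cell markers, from cells that carry this receptor, 8 of 10 were called higher in WT1-high and 7 of 10 in WT1-intermediate cells. In each comparison 1 was called lower, Thy1 (-0.89, adjusted p 0.0038, and -1.01, adjusted p 0.0018, limma). The part of these markers in the Il18r1 result was not tested.

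Il33, the nuclear alarm cytokine, showed the widest difference among the members. It stood at 9.94, 10.21 and 10.81 in WT1-high cells, 9.35, 10.32 and 10.58 in WT1-intermediate cells and 6.02, 5.08 and 6.27 in WT1-negative cells. The lowest array from injured liver was over 3 log2 units above the highest cultured array. The differences from WT1-negative cells were 4.53 (SE 0.37, adjusted p 1.6e-06) and 4.29 (SE 0.37, adjusted p 3e-06), which are 23.1-fold and 19.6-fold. Over the 20 alternatives they ran from 3.24 to 4.74 and from 3.03 to 4.68, with an adjusted p of at most 0.00018. The 2 populations of injured liver overlapped and differed by 0.24 (SE 0.37, adjusted p 0.80), higher in WT1-high in 2 of 3 animals. All 10 mesothelial markers were called higher in the same comparisons, and their part in the Il33 result was not tested.

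Il1rl1, which encodes the IL-33 receptor ST2, was close to background. The probe for transcript variant 2 stood at 4.87, 4.95 and 4.88 in WT1-high cells, 4.54, 4.50 and 5.11 in WT1-intermediate cells and 4.36, 4.50 and 4.32 in WT1-negative cells. It was detected on 3, 2 and 0 arrays of the groups. WT1-high was at least 1.23-fold above WT1-negative (adjusted p 0.027), a call lost in 6 of 19 alternatives, including those without WT1-high 1 (0.055), WT1-high 8 (0.08), WT1-negative 3 (0.071) or WT1-negative 14 (0.086), while WT1-intermediate was not called (0.32, adjusted p 0.13). The probe for variant 1 was detected on no array and was not tested.

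Il6, the ligand of the IL-6 receptor, stood at 8.33, 9.48 and 8.75 in WT1-high cells, 9.32, 9.71 and 9.92 in WT1-intermediate cells and 5.89, 4.63 and 5.63 in WT1-negative cells. All 6 arrays from injured liver lay above the 3 cultured ones. The log2 differences from WT1-negative cells were 3.47 (SE 0.35, adjusted p 7.1e-06), or 11.1-fold, for WT1-high and 4.26 (SE 0.35, adjusted p 1.9e-06), or 19.2-fold, for WT1-intermediate; without background correction they were 2.08 and 2.77, still called. WT1-high was lower than WT1-intermediate in 3 of 3 animals (-0.99, -0.23 and -1.17), and the fitted difference of -0.79 (SE 0.35) was not called (adjusted p 0.27).

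Il6ra, the ligand-binding chain, ran against its ligand. The leading probe stood at 6.02, 5.77 and 5.82 in WT1-high cells, 6.96, 6.84 and 6.04 in WT1-intermediate cells and 6.94, 7.69 and 7.19 in WT1-negative cells. WT1-high lay below WT1-negative without overlap (-1.41, SE 0.26, adjusted p 0.00064), and the other probes gave -1.25 (adjusted p 0.0031) and -0.92 (adjusted p 0.0053). In WT1-intermediate cells the 3 probes gave -0.66 (adjusted p 0.044), -1.05 (adjusted p 0.0085) and -0.97 (adjusted p 0.0041). The first of these overlapped with WT1-negative and lost its call in 11 of 20 alternatives, including those without WT1-high 1 (0.052), WT1-high 8 (0.055), WT1-high 29 (0.051), WT1-intermediate 30 (0.17), WT1-negative 11 (0.17) or WT1-negative 14 (0.075). Between WT1-high and WT1-intermediate the leading probe differed by -0.74 (SE 0.26, adjusted p 0.15), lower in 3 of 3 animals, and was called without WT1-intermediate 30 (-1.05, adjusted p 0.026). The other 2 probes differed by -0.19 and 0.05. The summed macrophage and monocyte markers were also higher in culture, with 3 higher and 13 lower by gene in WT1-high cells and 6 higher and 8 lower in WT1-intermediate cells, and their part in the Il6ra result was not tested.

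Il6st, which encodes gp130, stood at 9.26, 9.04 and 9.30 in WT1-high cells, 8.76, 9.36 and 9.06 in WT1-intermediate cells and 7.32, 7.32 and 7.87 in WT1-negative cells. The cells from injured liver did not overlap with the cultured ones, and the differences were 1.70 (SE 0.20, adjusted p 2.7e-05) and 1.56 (SE 0.20, adjusted p 6.2e-05), which are 3.25-fold and 2.94-fold. WT1-high and WT1-intermediate overlapped and differed by 0.14 (SE 0.20, adjusted p 0.78). A further Il6st probe was detected on no array.

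**Figure D5:**
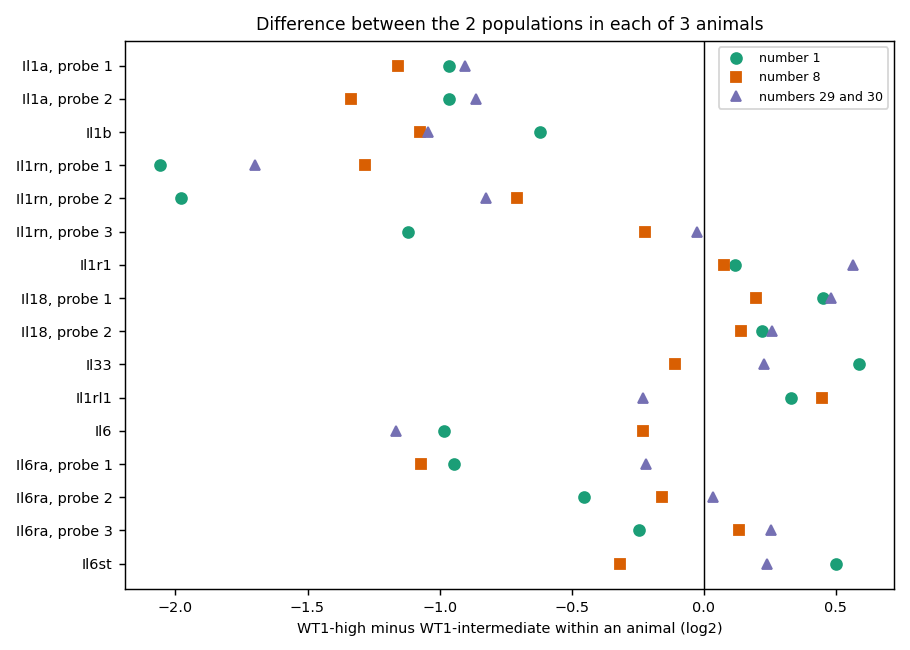
WT1-high minus WT1-intermediate log2 intensity within each of 3 animals (horizontal axis) for the 16 tested probes; 0 is no difference. Both Il1a probes, Il1b, the 3 Il1rn probes, Il6 and the leading Il6ra probe lie below 0 in 3 of 3 animals, and Il1r1 and both Il18 probes above 0 in 3 of 3.

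The other IL-6 family genes that use gp130 split by comparison. Of 12 tested, 3 were called higher and 4 lower in WT1-high cells than in cultured ones, and 5 higher and 3 lower in WT1-intermediate cells. The shares over all genes were 27.6% higher and 32.1% lower in the first of these comparisons, and 25.9% and 32% in the second. Osmr, the oncostatin M receptor chain that pairs with gp130, had means of 9.33, 9.02 and 7.21 and was higher by 2.12 (adjusted p 3.2e-05) and 1.81 (adjusted p 0.00012). Its ligand Osm stood at 7.52, 9.27 and 10.58 and was lower by -3.06 (adjusted p 2e-05) and -1.31 (adjusted p 0.0072). Ctf1 (cardiotrophin 1) was higher by 2.57 and 1.76 (adjusted p 6.4e-07 and 1.4e-05), and Cntfr, the ciliary neurotrophic factor receptor, at least 2.18-fold and at least 2.22-fold higher. Ebi3, a subunit of IL-27, was lower by -2.60 and -1.49 (adjusted p 1.8e-06 and 0.00014).

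Lifr was lower in WT1-high cells (-0.53, adjusted p 0.031), a call lost without WT1-high 1, WT1-high 29, WT1-negative 3 or WT1-negative 11. Il27ra and Il11ra1 were higher in WT1-intermediate cells (0.98, adjusted p 0.0013, and 0.47, adjusted p 0.048). The former was called in 19 of 20 alternatives (adjusted p of up to 0.1) and the latter in 8 of 20. Il11, Lif and Clcf1 were not called in any comparison, and Cntf and Il27 were detected on no array. Within injured liver, Osm (-1.74, adjusted p 0.021) and Ebi3 (-1.11, adjusted p 0.019) were lower and Ctf1 higher (0.82, adjusted p 0.036) in WT1-high cells than in the WT1-intermediate ones. The Osm and Ebi3 calls were each lost without WT1-high 8, WT1-high 29 or WT1-intermediate 1, with an adjusted p of up to 0.12 and 0.19 over all settings, and the Ctf1 call stood in 1 of 9 fits that left out an array (that without WT1-intermediate 8), with an adjusted p of up to 0.13.

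Behind the IL-6 receptor, 7 of 12 signalling and shedding genes were called higher and 2 lower in WT1-high cells than in cultured ones, with a median log2 difference of 0.88, and 6 were higher and 0 lower in WT1-intermediate cells (median 0.54), where 7 had an unadjusted p under 0.05. Beside these stand 27.6% higher and 32.1% lower over all genes in the first comparison, and 25.9% and 32% in the second. The kinases Jak1 and Jak2 were higher by 2.80 and 1.28 in WT1-high cells (adjusted p 3.8e-07 and 0.00026), and by 3.08 and 0.88 in WT1-intermediate cells (adjusted p 2.4e-07 and 0.0033). Stat3 was higher by 1.70 and 1.41 (adjusted p 0.00032 and 0.0012) and its feedback inhibitor Socs3 by 1.34 and 1.76 (adjusted p 0.0013 and 2e-04); in WT1-intermediate cells the Jak2 and Stat3 calls were each lost in 1 of 20 alternatives (adjusted p 0.66 and 0.16). Cish had the largest rise of the list in WT1-high cells (3.07, adjusted p 2.6e-05). The sheddases differed from each other, Adam10 being at least 1.92-fold and at least 2.31-fold higher and Adam17 lower in WT1-high cells (-0.87, adjusted p 0.0057), with -0.50 in WT1-intermediate cells (adjusted p 0.075). With animals as a fixed replicate block the latter had an adjusted p of 0.032, which is too small for groups that share no animal. Tyk2 was the other gene called lower in WT1-high cells (-0.79, adjusted p 0.006), and the calls of Adam17 and Tyk2 were each lost in 1 of 20 alternatives (adjusted p 0.071 and 0.093). Between WT1-high and WT1-intermediate 0 of the 12 were called by limma, and 1 had an unadjusted p under 0.05; with the replicate block, Tyk2 was called lower in WT1-high cells (-0.50, adjusted p 0.049).

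The genes known to respond to IL-6 and STAT3 were higher from 10 of 14 in WT1-high cells and 7 of 14 in WT1-intermediate cells, with none lower and medians of 1.35 and 0.98, against WT1-negative cells. The largest were acute phase genes, Lcn2 (3.54 and 3.26), Saa3 (3.42 and 3.53) and Lbp (2.91 and 2.94), each with an adjusted p of at most 1.7e-06. Over all genes, 27.6% were called higher in the first of these comparisons and 25.9% in the second. Socs3 was also counted among the signalling and shedding genes above. Hepatocyte markers were called higher too, 6 of 6 tested in WT1-high cells (median 1.87) and 3 of 6 in WT1-intermediate cells (median 0.93). Among them were Ttr, the plasma carrier transthyretin (3.68 and 3.63), and Apoa1, an apolipoprotein, at least 6.42-fold and at least 3.75-fold. The list held 8 genes, and the untested Alb and Fgb were detected on no array. The part of hepatocyte RNA in the result was not tested. Between the 2 populations of injured liver 0 of 14 were called, and 0 had an unadjusted p under 0.05.

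Behind the IL-1 receptor, 11 of 23 signalling genes were higher and 8 lower in WT1-high cells than in cultured ones, and 9 higher and 7 lower in WT1-intermediate cells. Of all genes, 27.6% were higher and 32.1% lower in the first of these comparisons, and 25.9% and 32% in the second. The largest rises in WT1-high cells were those of Tnfaip3 (A20), a feedback inhibitor of NF-κB (3.99, adjusted p 5.3e-09), and of the IκB family genes Nfkbiz (2.70, adjusted p 2.5e-07) and Nfkbia (1.79, adjusted p 3.3e-06). The NF-κB subunits Nfkb1, Nfkb2, Rela, Relb and Rel were called higher in both populations, from 0.88 to 1.85, although in WT1-intermediate cells the calls of Nfkb1, Rela and Relb were each lost in 1 of 20 alternatives (adjusted p 0.61, 0.33 and 0.066). The largest falls were Irak4 (-1.94 and -1.95), a kinase of the receptor complex, and Map3k7ip2 (-1.05 and -1.02), an adaptor of the TAK1 kinase, with Irak2 at -1.05 in WT1-high cells (adjusted p 0.0025). Myd88, the adaptor, was higher in the WT1-high population (0.51, adjusted p 0.0078; lost in 1 of 20 alternatives, adjusted p 0.068), with 0.34 in WT1-intermediate cells (adjusted p 0.054). None of the 23 was called between WT1-high and WT1-intermediate by limma, and 4 had an unadjusted p under 0.05; with animals as a fixed replicate block, Irak2 was called lower in WT1-high cells (-0.76, adjusted p 0.029).

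Of the inflammasome genes, Casp1 did not pass the test against culture in either population (-0.26 and -0.23, adjusted p 0.24 and 0.29). Casp4, the caspase of the non-canonical inflammasome, was higher by 1.94 and 1.45 (adjusted p 1.3e-05 and 0.00014). Pycard, the adaptor ASC, was lower by -0.93 and -0.53 (adjusted p 0.00083 and 0.024; the latter lost without WT1-intermediate 8 or 30 or any WT1-negative array, with an adjusted p of up to 0.086 over all settings). The sensors Nlrc4 (-1.57 and -1.05) and Aim2 (-1.54 and -1.03) were lower, and Nlrp3 was detected on 1 array and not tested. P2rx7, the ATP-gated channel upstream of the inflammasome, was lower in WT1-high cells than in the WT1-intermediate ones (-0.71, adjusted p 0.021; not called without WT1-high 8, WT1-high 29 or WT1-intermediate 8, with an adjusted p of up to 0.10 over all settings). It was the only one of the 8 tested genes called there, and it was also lower than in culture in WT1-high cells (-0.93, adjusted p 0.00018). Gsdmd, the pore-forming gasdermin D, was lower in WT1-intermediate than in cultured cells (-0.59, adjusted p 0.029), not called without WT1-intermediate 30, WT1-negative 11 or WT1-negative 14. In all, 1 of the 8 was higher and 4 were lower than in WT1-negative cells in each population. Over all genes the shares were 27.6% and 32.1% in WT1-high cells, and 25.9% and 32% in WT1-intermediate cells.

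The genes known to respond to IL-1 and NF-κB were higher from 13 of 18 in WT1-high and 15 of 18 in WT1-intermediate cells, with medians of 1.47 and 1.57 beside -0.07 and -0.10 over all genes. Of all genes, 27.6% and 25.9% were called higher. The lists overlap: Tnfaip3, Nfkbia and Nfkbiz were also counted among the IL-1 signalling genes, and Lcn2 among the IL-6 response genes. Beside Tnfaip3 and Lcn2, Ptgs2 (cyclooxygenase 2) was at least 8.52-fold and at least 6.20-fold higher, being not well above background in culture. Ccl7, a monocyte chemokine, was lower by -1.63 (adjusted p 0.00021) and -0.80 (adjusted p 0.018; lost without WT1-intermediate 8 or WT1-negative 14, with an adjusted p of up to 0.078 over all settings). Mmp3 (stromelysin) was the 1 gene of this list called between the populations of injured liver, 3.99-fold lower in WT1-high (adjusted p 0.0048), and it was called under 20 of 20 alternatives. It was also lower in WT1-high cells than in cultured ones (-0.98, adjusted p 0.015) and higher in WT1-intermediate cells than in cultured ones (1.02, adjusted p 0.012), the former not called without WT1-high 1, WT1-negative 3 or WT1-negative 14 and the latter not without WT1-intermediate 30 or WT1-negative 11. Csf3 was lower in WT1-high cells, where it was not well above background (at least 1.23-fold, adjusted p 0.04; called in 10 of 19 alternatives).

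The genes whose leading probes followed each member most closely over the 9 arrays were found by Pearson correlation, as a description of arrays that share 3 groups. Il1a was followed by Aoah, Blvrb and Tnfaip8l2 (r of 0.993 to 0.995), Il6ra by Cd80, Dennd1c and Apoc2 (0.979 to 0.981) and Il1rn by Plek, B430114K07Rik and Stxbp3 (0.961 to 0.982). Il33 was followed by Dyrk1a, Gsta3 and Fkbp7 (0.995 to 0.997), Il18 by Chn2, Ky and Krba1 (0.993 to 0.998), and Il1b by Cbfa2t3h, Polg2 and Slc4a4 (0.976 to 0.982). Il6 was followed by 9430020K01Rik, 4632401N01Rik and LOC269213 (0.989 to 0.993) and Il6st by Nod1, D9Ertd392e and scl0002507.1_236 (0.988 to 0.989). The receptors close to background were followed by Hnrpul1, 5430407P10Rik and Syn3 for Il1r1 (0.922 to 0.973) and LOC100047839, Mvp and Pex14 for Il1rl1 (0.941 to 0.973).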

How the data were processed

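The deposited tables hold, for each probe and array, a mean bead intensity with no background correction or normalization, the detection p-value, the bead number and the bead standard error, as exported by the authors from the scanner software. The authors' joined table held the same intensity values (largest difference 0). From these, intensities were background-corrected on the 936 negative controls, quantile normalized with all controls, offset by 16 and put on the log2 scale (neqc, limma 3.58.1, R 4.3.3). Probes with a detection p-value under 0.05 on at least 3 arrays were kept (20573 of 45281). A linear model with 3 groups was fitted over 9 arrays with moderated statistics, and two-sided p-values were adjusted by Benjamini-Hochberg over all kept probes. The script was tested on simulated data.

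The members and lists were chosen with earlier results of these data known. Every member probe is reported, of the lists the genes that act directly on a member, the other IL-6 family genes and at most the 3 largest rises and falls, and for each member the 3 most similar genes; the NF-κB subunits and marker genes were named after their values were seen. A list gene that the rule would name is not reported here. Of 189 list genes, 182 matched by symbol and 1 by synonym, and 166 had a tested probe. A probe not well above background on every array of a group is given as a lower bound, from the higher of its own level and the lowest detected level on each array. All other fold changes are on the scale with the offset of 16, which understates changes of dim probes.

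According to the study, 3 animals gave the 6 arrays from liver; the numbers 1 and 8 recur, and 29 and 30 were taken as the third animal. One column header gave 29 where the label gives 30. Deviations from the group means correlated at 0.352, 0.338 and 0.468 within these pairs and at -0.386 to 0.0344 in the 6 other combinations. The study's methods take group sizes as animals in vivo and as independent cell isolations in vitro, and the WT1-negative arrays carry separate numbers. The number of arrays limits the precision. Alternatives covered background correction, scaling, offset, filter, animals as a replicate block, array weights, the compared groups alone and each array left out; the same alternatives for the list genes were added after seeing the data. Probe coordinates were not used here, because the build of the files is not given in the sources used here.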

Additional observations from a re-analysis of the deposited data

How the results depend on the processing

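Of 939 differences of single member probes recomputed under alternatives, 876 kept their direction and their side of the threshold, 35 lost a call, 15 gained one and 13 changed sign. For 30 of the 48 differences no alternative changed the call or the direction. Member probes called between WT1-high and WT1-intermediate numbered 3, against 1 without background correction, 0 under median scaling (limma; 2631 of all probes called) and 5 with a random replicate block by label numbers alone. With animals as a fixed replicate block, 4, 13 and 14 member probes were called in the 3 comparisons against 3, 12 and 13 without it, and over all probes 1656, 13283 and 13042 against 730, 12258 and 11935. Against culture, where the groups share no animal, the fixed block takes spread between animals out of the error. With animals as a random replicate block, 4, 12 and 13 member probes and 1796, 12246 and 11930 of all probes were called. Beside the calls named above the fixed block changed no other member call. The block lost no call of a list gene. Within the injured liver it moved the macrophage and monocyte markers called lower from 15 to 19, the endothelial from 3 to 6, and the markers called higher from 0 to 3 for hepatocytes and from 1 to 4 for mesothelium. Leaving out each array gave 2 to 4, 11 to 13 and 11 to 13 member probes called. Median scaling moved the median of all probes between WT1-high and WT1-intermediate from 0.05 to 0.45 and between WT1-intermediate and WT1-negative from -0.13 to -0.44; relative to that median, the Il1a probes were at -0.96 and -0.95 and the leading Il1rn probe at -1.47 between WT1-high and WT1-intermediate. Of all called probes, the share above 0 between WT1-high and WT1-intermediate was 25.5%, against 95.4% under median scaling and 39.3% without background correction, and between WT1-intermediate and WT1-negative 42.1%, against 23.1% under median scaling. Over all probes, calls between WT1-high and WT1-intermediate numbered 324 to 866 with 1 array left out, 335 without the filter, 473 without background correction and 339 with the compared groups alone.

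The 13 sign changes were all in differences that were not called. For the leading Il1rn probe, WT1-high against WT1-negative ran from -0.0456 (without WT1-high 1) to 0.4836 with 1 array left out. For the variant 2 Il1rn probe, WT1-intermediate against WT1-negative was -0.3011 under median scaling and ran from -0.3795 (without WT1-intermediate 1) to 0.5716. The others lay between WT1-high and WT1-intermediate. The Il18 cDNA probe was at -0.0168 under cyclic loess. Il33 ran from -0.1307 (without WT1-intermediate 1) to 0.4838, with -0.0091 without WT1-high 29. The second Il6ra probe was at 0.0646 under median scaling and ran from -0.4195 to 0.0568 (without WT1-intermediate 1). The third Il6ra probe was at -0.0836 under cyclic loess and ran from -0.05 (without WT1-intermediate 30) to 0.2466, with -3e-04 without WT1-high 1 and -0.0474 without WT1-intermediate 8. Il6st ran from -0.0081 (without WT1-intermediate 1) to 0.2886. The cause was not tested for any of these changes. Signal over background limits Il1r1, Il1rl1 and the third Il1rn probe, which were detected on 3 to 5 of the 9 arrays, and the Il18 cDNA probe in the cells from injured liver.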
